A study of Phaseolus vulgaris with 24 samples.

Results

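The leaves of 2 common bean (Phaseolus vulgaris L.) genotypes were compared after salt treatment across all genes: 3 libraries of Ispir against 3 libraries of TR43477, that is 6 of the 24 libraries of the series. The members were taken by their labels alone (genotype, leaf tissue, salt treatment), and the read counts per gene of both genotypes were joined by gene identifier. Of 27213 genes in the tables, 22513 had at least 1 read in the 6 libraries and were tested. Ispir is described by the study as salt-tolerant and TR43477 as salt-susceptible. Plants of both genotypes were grown in hydroponics, received 50 and then 100 mM NaCl, and were kept at 125 mM NaCl for 3 days before the leaves were taken. Ispir seedlings were moved to hydroponics a day later after sowing than TR43477 seedlings, so genotype and seedling age cannot be told apart. The series also holds control leaves without NaCl and roots with and without NaCl, 3 libraries in each of 8 groups, and the labels call the 3 libraries of a group biological replicates. The comparison addresses which transcripts differ between the tolerant and the susceptible genotype under the same NaCl treatment.

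Leaf cells capture light with chlorophyll-binding antenna proteins (Lhcb proteins around photosystem II, Lhca proteins around photosystem I). The 2 photosystems pass electrons along the thylakoid membrane to ferredoxin, the ATP synthase uses the proton gradient, and Rubisco fixes carbon in the stroma. Salt acts on leaves through osmotic stress and through the entry of sodium, and plants answer with ion transporters, calcium signals, abscisic acid signalling, protective proteins and changes of the cell wall. Gene names and functions given below are those in the study's annotation, which covered 365 genes besides the reference gene actin, sorted here into 24 lists. Most of these genes were picked by the study for their salt response in these same libraries, so the lists are not independent evidence of a direction. The lists are described by their counts and medians, and shares of all genes are given for comparison.

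Depth was similar in both genotypes. The Ispir salt leaf libraries held 12163655 to 19634199 counted reads and the TR43477 ones 12765088 to 16020529, with 19820 to 20870 genes carrying a read in a library. Libraries of a group differed from one another by more than sampling noise, so none was counted as a repeat of another. The leaf label was checked with 27 antenna and Rubisco genes, Rubisco activase among them. Their summed level was expressed as CPM, that is read counts scaled to a common library size. The scaling used TMM (a factor per library that evens out composition) over all 24 libraries. The sum was 31250, 42886 and 62111 CPM in the Ispir salt leaves and 5590, 6326 and 5651 CPM in the TR43477 salt leaves. All root libraries lay between 38.98 and 481 CPM, far below every leaf library. Both salt leaf groups therefore carried leaf transcripts, but at unlike levels.

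The antenna and Rubisco sum averaged 45416 ± 15585 CPM (SD, n = 3) in Ispir and 5856 ± 408 CPM (SD, n = 3) in TR43477 salt leaves, a ratio of 7.76. The groups did not overlap, and the exact two-sided permutation test gave p = 0.1, the smallest that 3 against 3 libraries allow. In control leaves the order was not the same: the sum was 15309, 31940 and 62157 CPM in Ispir and 41940, 57236 and 79520 CPM in TR43477, and these groups overlapped (exact permutation p = 0.3). All libraries of the TR43477 salt leaves lay below those of the other 3 leaf groups. In salt-treated roots, at far lower levels, the sum was also higher in Ispir, at 116 ± 6.86 CPM against 48.8 ± 13.3 CPM in TR43477 (SD, n = 3). In bulk tissue, fewer mesophyll cells and less of these transcripts per cell cannot be told apart.

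**Figure D1:**
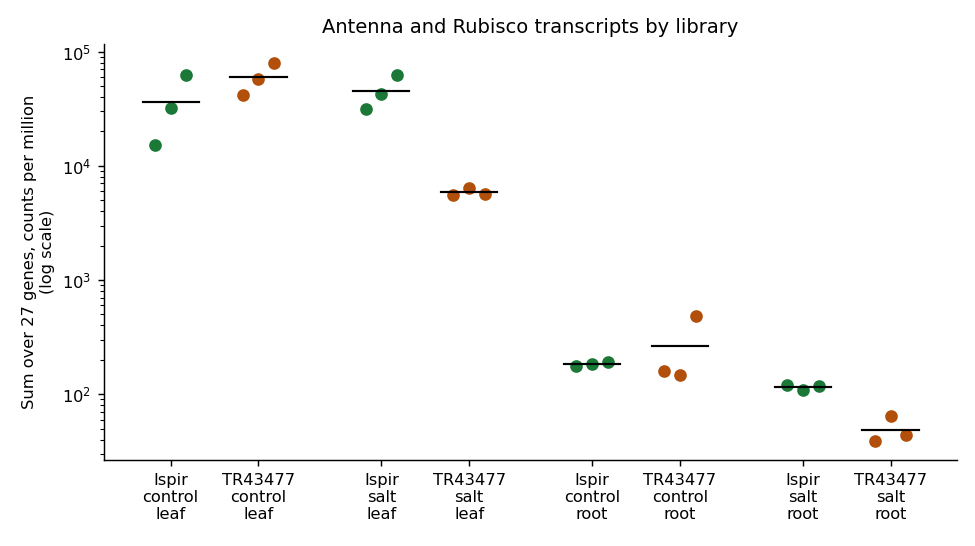
Sum of the CPM of 27 antenna and Rubisco genes (Rubisco activase included) in each library (log axis), for Ispir (green) and TR43477 (orange) in control and salt-treated leaves and roots. Each dot is a library and each line the mean of 3 libraries. The 3 TR43477 salt leaf libraries sit at 5590 to 6326 CPM, below the 31250 to 62111 CPM of the Ispir salt leaves, and all roots lie under 500 CPM.

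Across all genes, 5159 of 22513 (22.9%) differed between the genotypes in salt-treated leaves by more than 1 on the log2 scale with an adjusted p under 0.01 (edgeR quasi-likelihood test with Benjamini-Hochberg adjustment). Of these, 2562 (11.4% of the genes tested) were higher and 2597 (11.5%) were lower in Ispir. The fitted differences were large: 1245 genes were more than 4-fold higher and 1474 more than 4-fold lower in Ispir, and 449 and 617 genes passed 16-fold. Among all genes tested, 2130 had no read in 1 genotype, and a fold fitted against no reads has no measured size. The median log2 fold change (Ispir over TR43477) was 1.96 among the genes called higher, -2.26 among those called lower and -0.03 over all genes tested. The genotype groups did not overlap at 13348 genes (59.3%). With 1 library left out at a time, 3927 to 5462 genes were called, and 3292 genes were called in each of these 6 fits.

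Of the 365 annotated genes and actin, 349 had a read in these leaves, with 117 (33.5%) higher and 71 (20.3%) lower in Ispir, against 11.4% and 11.5% of all genes. Most were chosen for their response to salt, so these shares are no measure of annotated genes at large. With all 12 leaf libraries in 1 fit, called the joint fit below, 77 were higher and 34 lower, and with glmTreat, which tests against the fold threshold itself, 85 and 40. List counts that these fits moved by more than 1.5 times are given beside each list. Actin-11, used by the study as its reference gene, stood at 286, 352 and 329 CPM in Ispir and 222, 212 and 254 CPM in TR43477 and was not called (log2 fold change 0.49, edgeR adjusted p = 0.0203).

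**Figure D2:**
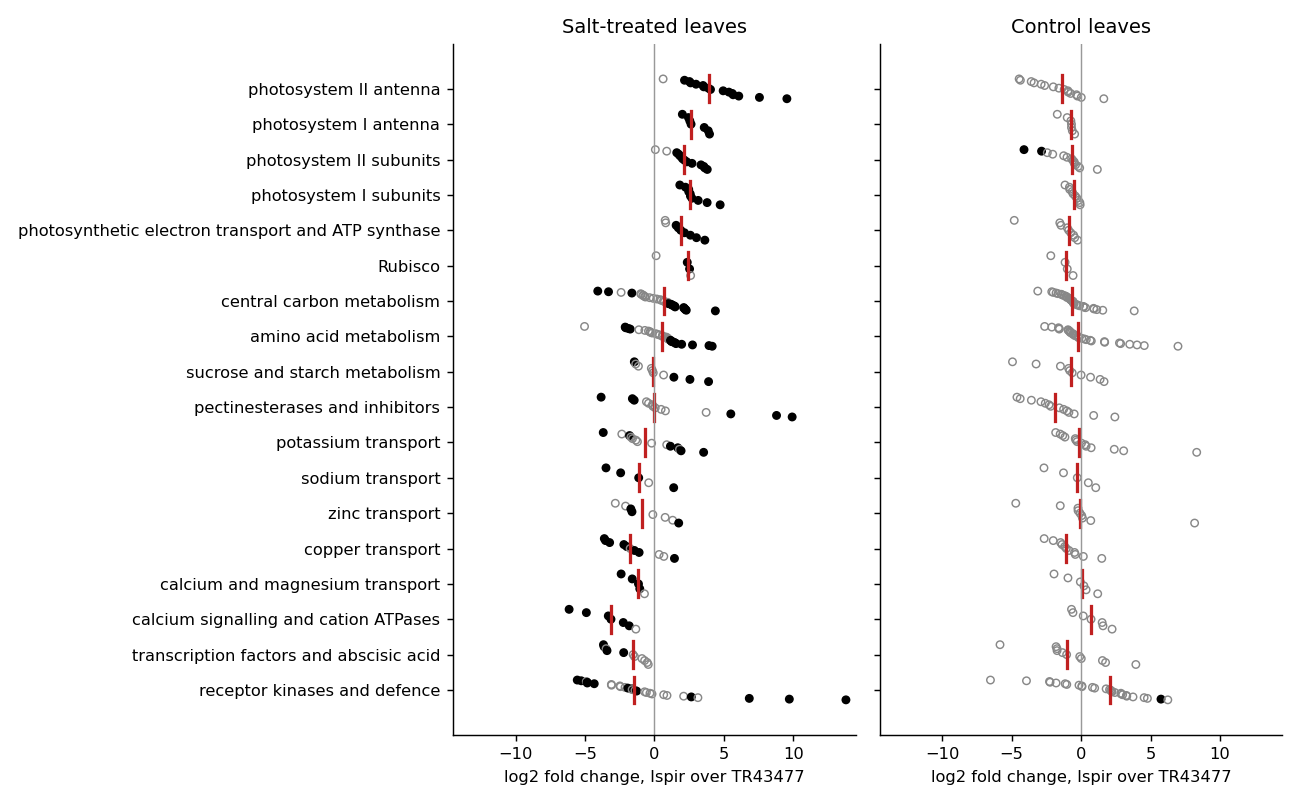
Log2 fold change of Ispir over TR43477 for the members of 18 annotated lists in salt-treated leaves (left) and in control leaves (right); each circle is a gene, filled where it passed both thresholds, and the red bar is the list's median. The 6 photosynthesis lists have medians of 1.90 to 3.96 in salt leaves and of -0.50 to -1.41 in control leaves, where 2 of their members passed the thresholds. Most listed genes were picked by the study for their salt response in these same libraries.

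Photosynthesis genes were called in 1 direction only. Of 60 members in 6 lists, 53 were higher in Ispir salt leaves, none was lower and 7 did not pass, against 11.4% of all genes called higher. The median log2 fold change was 2.59, and the groups did not overlap at 56 of the 60 genes, against 59.3% of all genes. Leaving out 1 library at a time gave 47 to 57 members called higher. In control leaves 57 of the 60 genes had a log2 fold change below 0, against 11685 of all 22793 genes tested there. Their median was -0.78, and 2 were called lower (0.268% of all genes tested there were called lower). Most of these genes were picked by the study for their salt response, which was measured against these control libraries. Their sign in control leaves is therefore not independent of that choice. None of the 122 control leaf calls held in every fit without 1 control library, and 0 remained with a replicate block.

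The photosystem II antenna showed the widest differences. Of its 16 genes, 15 were higher in Ispir, with a median log2 fold change of 3.96, or 3.72 with a gene that had no read in TR43477 set at the floor of 3 reads per library. Lhcb2 (Phvul.008G285100, chromosome 8, 62507248 to 62508854), a major protein of the trimeric antenna, reached 3488, 4840.2 and 7853 CPM in Ispir but 125, 103 and 90.8 CPM in TR43477. The lowest Ispir library was far above the highest TR43477 library, and the log2 fold change was 5.67 ± 0.37 (SE, edgeR adjusted p = 3.69e-05). Lhcb5 (Phvul.007G113000, chromosome 7, 18173197 to 18175697), a minor antenna protein, stood at 549, 757 and 1149.9 CPM in Ispir and at 23.4, 15.7 and 11.4 CPM in TR43477. Its groups did not overlap either, with a log2 fold change of 5.61 ± 0.39 (SE, edgeR adjusted p = 4.58e-05).

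Both genes of Lhcb6, another minor antenna protein, were higher in Ispir. Phvul.002G207500 had 1070.0, 1525 and 2301 CPM in Ispir and 106, 104 and 88.9 CPM in TR43477, a log2 fold change of 4.04 ± 0.30 (SE, edgeR adjusted p = 5.68e-05). Phvul.006G207300 had 798, 1148 and 1721 CPM against 89.0, 83.8 and 75.3 CPM, a log2 fold change of 3.89 ± 0.30 (SE, edgeR adjusted p = 6.13e-05). In both genes the TR43477 libraries were tightly grouped and all Ispir libraries lay above them. At the top of the list, the Lhcb1 gene Phvul.004G091600 had 8.92, 21.1 and 36.5 CPM in Ispir, whereas the TR43477 libraries together held 1 read, a ratio of 1045 (95% exact Poisson interval 188 to 41270.0, counting error only). It lies in a run of Lhcb1 copies on chromosome 4 whose sequences were not compared here, so the share of reads given to each copy is uncertain. The member that did not pass was an Lhcb3 gene (Phvul.011G155700), with 119, 119.9 and 329.8 CPM in Ispir and 96.0, 139.6 and 132 CPM in TR43477. Its groups overlapped (log2 fold change 0.63, edgeR adjusted p = 0.222), and the sign turned to -0.037 without Ispir replicate 3.

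All 7 photosystem I antenna genes were higher in Ispir, with log2 fold changes of 2.01 to 3.97 and a median of 2.64. Lhca2 (Phvul.009G260200, chromosome 9, 38045106 to 38046782) was at the top, with 318, 471 and 728 CPM in Ispir and 28.6, 38.2 and 30.1 CPM in TR43477 (log2 fold change 3.97 ± 0.32, SE, edgeR adjusted p = 7.43e-05). Lhca5 (Phvul.009G064900) was a much weaker transcript, at 42.3, 70.97 and 71.2 CPM against 6.63, 4.28 and 4.49 CPM, with a difference of like size (log2 fold change 3.59 ± 0.27, SE, edgeR adjusted p = 5.68e-05). Lhca3 (Phvul.008G289700) had the smallest difference of the list, from 3465, 4377 and 5381 CPM in Ispir to 1045, 1182 and 1050.2 CPM in TR43477 (log2 fold change 2.01 ± 0.22, SE, edgeR adjusted p = 0.000250). None of these 3 genes overlapped between the genotypes.

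The core photosystem subunits followed. All 10 photosystem I subunit genes (median log2 fold change 2.59) and 12 of 14 photosystem II subunit genes (median 2.101) were higher in Ispir. PsaK (Phvul.002G140800, chromosome 2, 28770006 to 28771605), a subunit of photosystem I on the antenna side, had 318, 397 and 529.7 CPM in Ispir and 21.97, 14.4 and 10.53 CPM in TR43477. It was the gene with the largest difference of its list, at a log2 fold change of 4.73 ± 0.33 (SE, edgeR adjusted p = 4.4e-05), and PsaE (Phvul.007G155500) the one with the smallest, at 545, 751 and 919.7 CPM against 220.2, 202 and 201 CPM (1.83 ± 0.20, SE). The 2 genes of PsbQ, an extrinsic protein of the oxygen-evolving complex, were both higher in Ispir. Phvul.003G045300 had 145, 202 and 203 CPM against 17.8, 9.48 and 12.2 CPM (log2 fold change 3.80 ± 0.26, SE, edgeR adjusted p = 4.23e-05). Phvul.010G052300, the stronger copy, had 1178, 1681 and 2239.9 CPM against 157, 143 and 135 CPM (log2 fold change 3.55 ± 0.26, SE, edgeR adjusted p = 5.18e-05).

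PsbP, a partner of PsbQ in the oxygen-evolving complex, gave 1 of the 2 photosystem II subunit genes that did not pass. The gene Phvul.008G015100 stood at 25.7, 46.6 and 56.1 CPM in Ispir salt leaves and 42.6, 38.7 and 41.1 CPM in TR43477 salt leaves, with overlapping groups and a log2 fold change of 0.07 (edgeR adjusted p = 0.839) that turned to -0.17 without Ispir replicate 3. Control leaf CPM were scaled in a fit of their own here and below, so they are set beside the salt leaf values without a test between the treatments. In control leaves the same gene had 12.6, 16.0 and 21.2 CPM in Ispir and 139, 113 and 105 CPM in TR43477, and the groups did not overlap (log2 fold change -2.84, edgeR adjusted p = 0.00743). That call is 1 of the control leaf calls that did not hold in every fit without 1 control library.

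Electron transport and ATP synthase genes were higher in Ispir at 7 of 9 loci (median log2 fold change 1.90). The delta subunit gene of the ATP synthase (Phvul.003G211100) had 439, 696 and 841 CPM in Ispir and 157, 131 and 153 CPM in TR43477 (log2 fold change 2.16 ± 0.24, SE, edgeR adjusted p = 0.000299). The gamma subunit gene (Phvul.006G149700) had 697, 1076 and 1505 CPM against 342, 311 and 341 CPM (log2 fold change 1.72 ± 0.27, SE, edgeR adjusted p = 0.00135). Both subunits belong to the rotary enzyme that makes ATP, and neither overlapped between the groups. The 2 PetF (ferredoxin) genes lie next to each other on chromosome 6 and differed from one another. Phvul.006G216700 had 21.2, 32.97 and 48.9 CPM against 2.80, 2.66 and 2.83 CPM (log2 fold change 3.63 ± 0.31, SE, edgeR adjusted p = 9.67e-05), whereas Phvul.006G216800 had 80.2, 182 and 238 CPM against 112, 72.8 and 107 CPM and overlapped (log2 fold change 0.77, edgeR adjusted p = 0.113). The second gene passed without Ispir replicate 1 (1.11, edgeR adjusted p = 0.00288).

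The Rubisco list held 4 genes, Rubisco activase among them. Of these, 2 (50%, against 11.4% of all genes) were higher in Ispir and none was lower, with a median log2 fold change of 2.45. This count fell to 1 without TR43477 replicate 2, in the joint fit and under glmTreat. The gene with the largest difference, Phvul.004G073450, had 231, 1190.3 and 403 CPM in Ispir and 179, 65.3 and 54.9 CPM in TR43477. It did not pass in the fit of all 6 libraries (log2 fold change 2.61, edgeR adjusted p = 0.0143) but did without Ispir replicate 1 (3.005, edgeR adjusted p = 0.00359) and without TR43477 replicate 1 (3.34, edgeR adjusted p = 0.0096). Rubisco activase (Phvul.010G016000), which frees the enzyme from bound sugar phosphates, stood at 354, 358 and 303 CPM against 274, 281 and 377 CPM, with overlapping groups and a log2 fold change of 0.12 (edgeR adjusted p = 0.557).

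**Figure D3:**
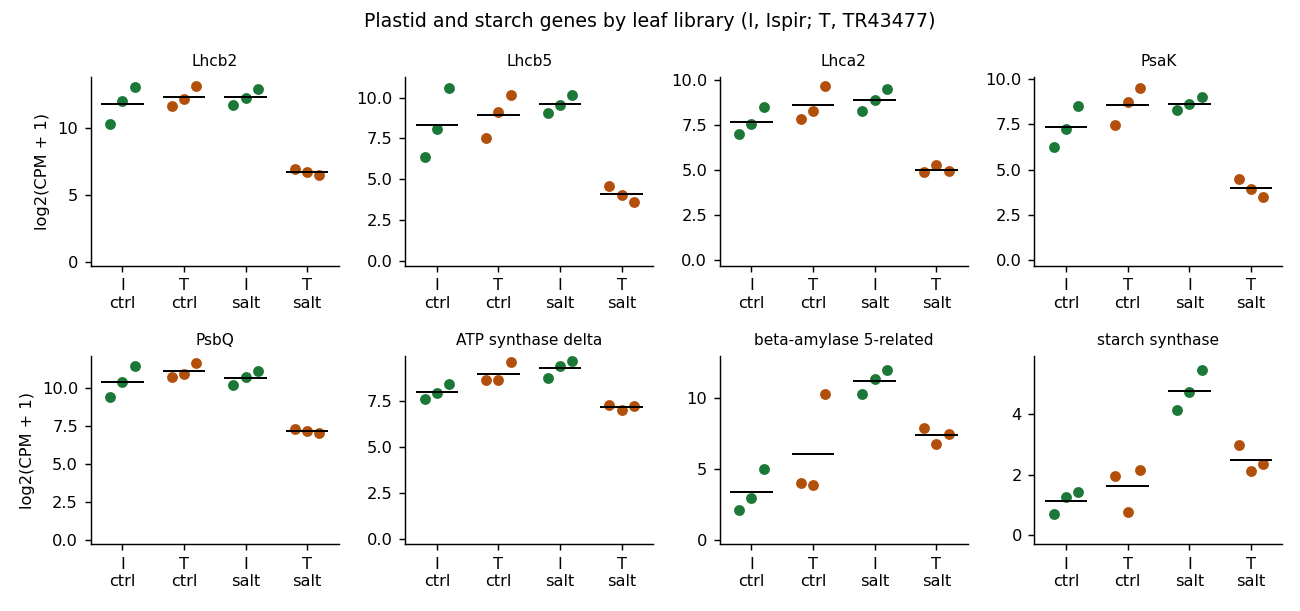
Level of 8 genes in each leaf library as log2(CPM + 1), with CPM scaled over the 12 leaf libraries, for Ispir (I, green) and TR43477 (T, orange) control (ctrl) and salt-treated leaves; dots are libraries and lines are means of 3. In the antenna, photosystem and ATP synthase panels the 3 TR43477 salt libraries lie below all other leaf libraries, while beta-amylase 5-related and starch synthase are highest in the Ispir salt libraries.

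Of 10 starch and sucrose genes, 3 (30%) were higher and 1 (10%) was lower in Ispir, against 11.4% and 11.5% of all genes, with a median log2 fold change of -0.11. The joint fit called 1 higher and none lower, and glmTreat 2 and none. A beta-amylase 5-related gene (Phvul.011G107700, chromosome 11, 12400206 to 12403151), of the enzyme family that releases maltose from starch, had 1286, 2576 and 4063 CPM in Ispir and 238, 111 and 181 CPM in TR43477 (log2 fold change 3.90 ± 0.47, SE, edgeR adjusted p = 0.000433). Its control leaf libraries were uneven, with 3.18, 6.80 and 31.1 CPM in Ispir and 14.4, 13.2 and 1234 CPM in TR43477. A starch synthase gene (Phvul.004G029100), which elongates glucan chains, had 17.02, 25.9 and 43.4 CPM against 7.08, 3.47 and 4.19 CPM (log2 fold change 2.56 ± 0.39, SE, edgeR adjusted p = 0.00125). The lowest of the list, a gene annotated to the conversion of sucrose and fructose (Phvul.009G223800), had 143, 73.2 and 56.9 CPM against 273, 232 and 238 CPM. Its call (log2 fold change -1.44, edgeR adjusted p = 0.00635) was lost without Ispir replicates 2 or 3 and without TR43477 replicates 1, 2 or 3 (adjusted p 0.0106 to 0.0312).

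Central carbon metabolism had 12 of 31 members (38.7%, against 11.4% of all genes) higher in Ispir, with a median log2 fold change of 0.66, and 6 under glmTreat. The 3 lower members (9.68%) were near the 11.5% of all genes, and 5 were lower without Ispir replicate 1. Both ends of the list were genes annotated to the glycolytic steps from fructose 6-phosphate to phosphoenolpyruvate (PEP). Phvul.008G282000 had 373, 526 and 835 CPM in Ispir and 30.1, 33.6 and 19.0 CPM in TR43477 (log2 fold change 4.39 ± 0.36, SE, edgeR adjusted p = 8.09e-05). Phvul.001G259000 went the other way, with 12.5, 8.68 and 6.37 CPM against 137, 175 and 153 CPM (log2 fold change -4.08 ± 0.25, SE, edgeR adjusted p = 2.69e-05). Neither overlapped between the genotypes, so genes annotated to the same run of steps lay far apart in both directions.

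Among 31 amino acid metabolism genes, 10 (32.3%, against 11.4% of all genes) were higher in Ispir, with 5 in the joint fit and 4 under glmTreat. The 4 lower ones (12.9%) were near the 11.5% of all genes, and the median log2 fold change was 0.58. A gene annotated to isoleucine (Phvul.009G166100) had 41.3, 61.2 and 69.8 CPM in Ispir and 3.83, 2.49 and 4.99 CPM in TR43477 (log2 fold change 3.93 ± 0.30, SE, edgeR adjusted p = 5.88e-05). Glutamine genes split. The glutamine synthetase gene Phvul.008G237500, whose product joins ammonium to glutamate, had 12.8, 111 and 75.5 CPM against 5.38, 1.33 and 4.62 CPM (log2 fold change 4.16, edgeR adjusted p = 0.00372), and its call was lost without Ispir replicate 2 and without any 1 of the TR43477 replicates (adjusted p 0.0115 to 0.0157). Another gene annotated to glutamine, Phvul.004G148300, had 135, 85.3 and 99.8 CPM against 404, 387 and 392 CPM (log2 fold change -1.88 ± 0.18, SE, edgeR adjusted p = 0.000169). The genes annotated to asparagine, a main nitrogen carrier of legumes, did not pass. Phvul.006G069300 had 2403, 2023 and 803 CPM against 1194, 721 and 562 CPM (log2 fold change 1.08, edgeR adjusted p = 0.0695) and passed only without Ispir replicate 3 (1.42, edgeR adjusted p = 0.00836). Phvul.001G252200 had 10.1, 6.21 and 10.7 CPM against 8.77, 7.28 and 8.93 CPM (log2 fold change 0.10, edgeR adjusted p = 0.736), and its sign turned to -0.041 without Ispir replicate 3. The lowest member, Phvul.002G186000 (aspartate to beta-alanine), was near the detection limit, with no read in Ispir and 0.737, 0 and 0.123 CPM in TR43477.

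Calcium signalling genes lay on the other side. Of 7 genes for calcium-binding proteins and cation-transporting ATPases, 6 were lower in Ispir, none was higher and the median log2 fold change was -3.13, against 11.5% of all genes called lower. Calmodulin (Phvul.008G037300, chromosome 8, 3063362 to 3064436), the calcium sensor, had 0.248, 1.23 and 0.718 CPM in Ispir and 25.4, 29.9 and 112 CPM in TR43477. TR43477 replicate 3 was the highest by far, and still the other libraries of that genotype lay above all Ispir libraries (log2 fold change -6.14 ± 0.78, SE, edgeR adjusted p = 0.000536). The 1 member that did not pass, an EF hand gene (Phvul.001G021750), had 8.10, 2.13 and 7.27 CPM against 12.3, 17.98 and 13.1 CPM (log2 fold change -1.34, edgeR adjusted p = 0.0345). In control leaves the list's median was 0.72 and no member was called.

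Calcium and magnesium transporters were lower in Ispir at 4 of 5 genes (median log2 fold change -1.15), against 11.5% of all genes. This count fell to 2 without Ispir replicates 1 or 3 and without TR43477 replicate 3, and to 1 in the joint fit and under glmTreat. A Na+/Ca2+ exchanger gene (Phvul.001G105500) had 5.95, 4.09 and 3.68 CPM in Ispir and 25.3, 22.3 and 24.5 CPM in TR43477 (log2 fold change -2.40 ± 0.20, SE, edgeR adjusted p = 8.29e-05). Mg2+ transporter 3 (Phvul.003G042200) had 55.8, 58.5 and 60.3 CPM against 98.0, 97.3 and 91.4 CPM, a difference below the fold threshold (log2 fold change -0.72).

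Of 5 sodium transport genes 3 (60%, against 11.5% of all genes) were lower and 1 (20%, against 11.4%) was higher in Ispir, with a median log2 fold change of -1.13. The joint fit and glmTreat each called 2 lower and none higher. Na+/H+ exchanger 2 (Phvul.006G097100), of a family that moves sodium out of the cytosol in exchange for protons, had 1.49, 0.952 and 0.808 CPM in Ispir and 14.7, 16.2 and 5.603 CPM in TR43477 (log2 fold change -3.49 ± 0.46, SE, edgeR adjusted p = 0.000643). A sodium-coupled solute symporter annotated to urea (Phvul.002G127200) had 20.5, 11.8 and 11.8 CPM against 75.6, 76.5 and 84.8 CPM (log2 fold change -2.43 ± 0.22, SE, edgeR adjusted p = 0.000135). The member that was higher, a DASS family symporter (Phvul.006G204300), had 43.5, 63.9 and 78.6 CPM against 25.6, 17.5 and 27.95 CPM (log2 fold change 1.39, edgeR adjusted p = 0.00268). It lost its call without Ispir replicate 2 (adjusted p = 0.0123) and without TR43477 replicate 2 (adjusted p = 0.0101).

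Of 14 potassium transport genes 4 (28.6%, against 11.4% of all genes) were higher in Ispir, and 2 under glmTreat, with a median log2 fold change of -0.71. The 2 lower genes (14.3%) were near the 11.5% of all genes. Their number was 1 without Ispir replicate 3 or TR43477 replicate 3 and in the joint fit, 0 without TR43477 replicate 2, under glmTreat and with a replicate block, and 5 with DESeq2. A K+ transporter family gene (Phvul.008G152200) had 96.9, 123 and 127 CPM in Ispir and 29.26, 29.25 and 33.1 CPM in TR43477 (log2 fold change 1.92 ± 0.14, SE, edgeR adjusted p = 5.37e-05). Both ends of the list were weak transcripts. K+ uptake permease 5 (Phvul.009G047300) had 1.40, 1.85 and 2.15 CPM against 0.0737, 0.347 and 0 CPM, and its call (log2 fold change 3.54, edgeR adjusted p = 0.00524) was lost without Ispir replicates 2 or 3 and without TR43477 replicate 1 (adjusted p 0.0150 to 0.0208). A calcium-activated K+ channel gene (Phvul.008G231614) held 2 reads in all Ispir libraries together and 0.885, 0.694 and 0.554 CPM in TR43477, 14.6 times as much (95% exact Poisson interval 4.05 to 121), and its call (edgeR adjusted p = 0.0089) was lost whichever of the 6 libraries was left out (adjusted p 0.0129 to 0.0307).

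Copper transport genes were lower in Ispir at 7 of 11 loci (63.6%, against 11.5% of all genes) and higher at 1 (9.09%, against 11.4%), with a median log2 fold change of -1.75. The lower count fell to 4 without Ispir replicates 1 or 3 or TR43477 replicate 2 and with a replicate block, to 3 without Ispir replicate 2, to 2 in the joint fit and to 1 under glmTreat. The higher count fell to 0 in the joint fit and under glmTreat. The lowest member (Phvul.004G158700) had 0.496, 0.784 and 0 CPM in Ispir and 7.81, 6.48 and 3.02 CPM in TR43477 (log2 fold change -3.61, edgeR adjusted p = 0.00329), a call lost without TR43477 replicate 1 (adjusted p = 0.0120) and without TR43477 replicate 2 (adjusted p = 0.0134). The highest (Phvul.008G282200) had 17.1, 26.2 and 31.0 CPM against 5.68, 12.03 and 9.48 CPM (log2 fold change 1.444, edgeR adjusted p = 0.00553), a call lost without Ispir replicates 2 or 3 and TR43477 replicates 1 or 3 (adjusted p 0.0130 to 0.0226). Of 8 zinc transport genes 1 (12.5%) was higher and 2 (25%) were lower in Ispir, against 11.4% and 11.5% of all genes, with a median log2 fold change of -0.86; glmTreat called none higher and 1 lower. Zn2+ transporter 11 (Phvul.006G055800) had 79.9, 66.3 and 40.7 CPM against 14.7, 20.3 and 20.5 CPM (log2 fold change 1.75 ± 0.25, SE, edgeR adjusted p = 0.000992), and Zn2+ transporter 10 (Phvul.002G099700), the lowest, was not above 0.924 CPM in any library. Nicotianamine synthase (Phvul.001G225000), which makes a chelator that carries iron, zinc and copper, had 30.0, 16.2 and 20.7 CPM in Ispir and 129.5, 166 and 129.7 CPM in TR43477 (log2 fold change -2.67 ± 0.24, SE, edgeR adjusted p = 0.000110).

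Among 18 other transporters 3 (16.7%) were higher and 2 (11.1%) lower in Ispir, near the 11.4% and 11.5% of all genes, with a median log2 fold change of -0.50. The lower count was 5 without Ispir replicate 1 and 1 without Ispir replicate 3 or TR43477 replicate 2, in the joint fit and with a replicate block, and glmTreat called 1 in each direction. An EamA-like transporter gene (Phvul.003G151700) had 718, 923 and 687 CPM in Ispir and 32.4, 12.1 and 14.2 CPM in TR43477 (log2 fold change 5.31 ± 0.41, SE, edgeR adjusted p = 6.82e-05). A solute carrier family 13 gene (Phvul.004G111900) went the other way, with 5.45, 6.21 and 1.17 CPM against 78.6, 44.5 and 39.2 CPM (log2 fold change -3.62 ± 0.51, SE, edgeR adjusted p = 0.000850).

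**Figure D4:**
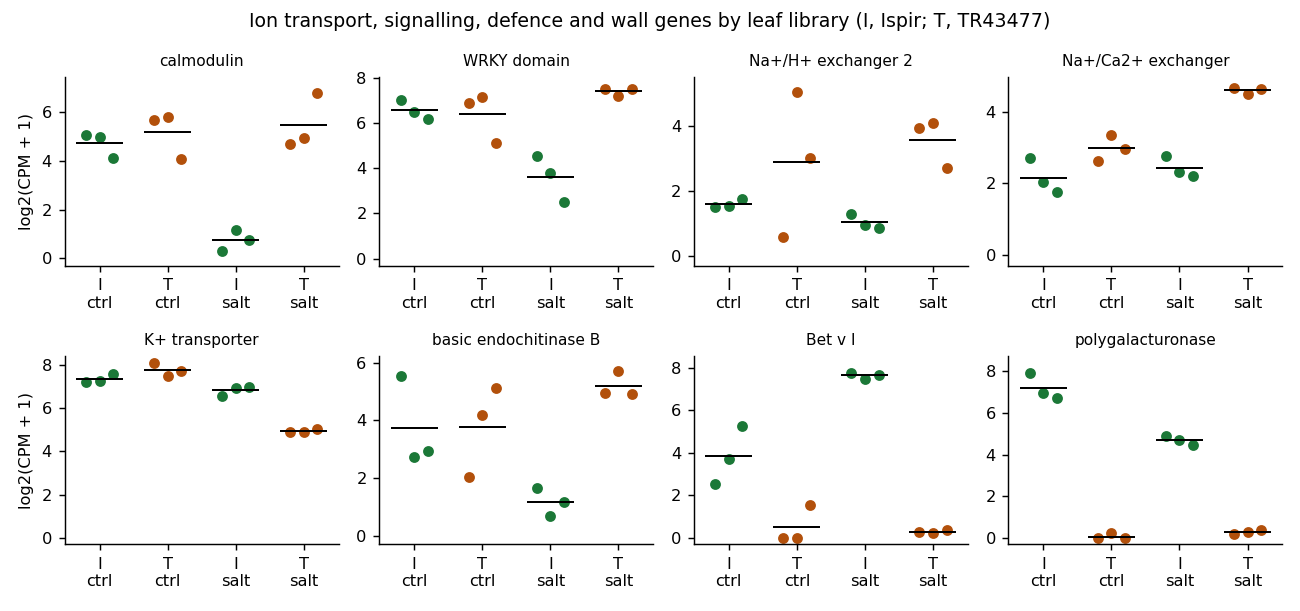
Level of 8 genes in each leaf library as log2(CPM + 1), with CPM scaled over the 12 leaf libraries, for Ispir (I, green) and TR43477 (T, orange) control (ctrl) and salt-treated leaves; dots are libraries and lines are means of 3. Calmodulin, the WRKY domain gene and basic endochitinase B are lowest in the Ispir salt libraries, whereas polygalacturonase is higher in Ispir than in TR43477 both with and without salt.

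No member of the transcription factor and abscisic acid list was higher in Ispir, and 4 of 11 (36.4%, against 11.5% of all genes) were lower. In a list of this length, few higher members would be seen at the 11.4% of all genes. The median log2 fold change was -1.53, or -1.44 with a gene that had no read in Ispir set at the floor, and 2 genes were lower in the joint fit. A WRKY domain gene (Phvul.006G147800), of a family tied to stress and defence, had 23.0, 12.99 and 4.76 CPM in Ispir and 186, 148 and 186 CPM in TR43477 (log2 fold change -3.67 ± 0.47, SE, edgeR adjusted p = 0.000568). In control leaves it stood at 123, 86.9 and 70.8 CPM against 109, 135 and 33.5 CPM, with overlapping groups (log2 fold change 0.01, edgeR adjusted p = 0.988). The abscisic acid receptor gene PYL4 (Phvul.010G065400) had 8.84, 8.73 and 5.205 CPM against 8.33, 8.15 and 14.6 CPM in salt leaves and did not pass (log2 fold change -0.44, edgeR adjusted p = 0.256).

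Receptor kinases and defence genes were lower in Ispir at 8 of 28 loci (28.6%, against 11.5% of all genes), 2 in the joint fit and 5 under glmTreat. The 4 higher ones (14.3%) were near the 11.4% of all genes. The list had a median log2 fold change of -1.503, or -0.99 with the 3 genes that had no read in 1 genotype set at the floor. Basic endochitinase B (Phvul.009G116600), which cleaves fungal chitin, had 2.23, 0.616 and 1.26 CPM in Ispir and 30.4, 53.02 and 29.4 CPM in TR43477 (log2 fold change -4.84 ± 0.43, SE, edgeR adjusted p = 0.000117). A leucine rich repeat gene (Phvul.007G087500) had 0.826, 0.168 and 0.0897 CPM against 8.99, 17.2 and 23.6 CPM (log2 fold change -5.55 ± 0.62, SE, edgeR adjusted p = 0.000305). In both genes the highest Ispir library lay below the lowest TR43477 library.

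The highest members of that list were 3 neighbouring genes of the Bet v I family of pathogenesis-related proteins on chromosome 11. Phvul.011G183900 (49748052 to 49748866) had 222, 179 and 208 CPM in Ispir and 0.221, 0.173 and 0.308 CPM in TR43477, and had the smallest adjusted p of all annotated genes (log2 fold change 9.71 ± 0.22, SE, edgeR adjusted p = 1.76e-06). Phvul.011G183832 had 129.6, 109 and 123 CPM in Ispir and no read in TR43477, at least 623.7-fold higher against a floor of 3 reads per library (edgeR adjusted p = 9.33e-06). Phvul.011G183766 had 65.0, 49.6 and 56.4 CPM against 0.663, 0.173 and 0.677 CPM (log2 fold change 6.83 ± 0.33, SE, edgeR adjusted p = 1.39e-05). Tandem copies can share reads, and both genotypes were aligned to 1 reference genome, so the split among the 3 copies is uncertain and a diverged or missing TR43477 copy cannot be told apart from a silent one. In control leaves Phvul.011G183900 had 4.48, 12.2 and 37.6 CPM in Ispir and 0, 0 and 1.90 CPM in TR43477 (log2 fold change 4.78, edgeR adjusted p = 0.124), so its reads were not wholly lacking from TR43477 leaves.

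Of 7 heat shock genes 2 (28.6%) were higher and 3 (42.9%) lower in Ispir, against 11.4% and 11.5% of all genes, with a median log2 fold change of -0.49. The lower count was 1 without TR43477 replicates 1 or 3 and under glmTreat, and the joint fit called 1 higher and none lower. A small heat-shock protein gene of the HSP20 family (Phvul.006G046000), whose products keep unfolded proteins soluble, had 306, 238 and 585 CPM in Ispir and 13.8, 21.9 and 15.02 CPM in TR43477 (log2 fold change 4.48 ± 0.38, SE, edgeR adjusted p = 9.67e-05). Heat stress transcription factor b-2b (Phvul.002G155300) had 68.9, 90.8 and 87.0 CPM against 276, 268 and 245 CPM (log2 fold change -1.68 ± 0.14, SE, edgeR adjusted p = 9.7e-05). Both late embryogenesis abundant genes, whose hydrophilic products accumulate in drying tissue, were lower in Ispir (median log2 fold change -3.75), against 11.5% of all genes. In the joint fit and under glmTreat 1 of them was called lower. Phvul.007G225200 had 5.45, 2.24 and 1.88 CPM against 229, 149 and 87.2 CPM (log2 fold change -5.61 ± 0.51, SE, edgeR adjusted p = 0.000122), and it was under 0.5 CPM in every control leaf library. The second, Phvul.003G096700, had 3.88, 1.85 and 3.59 CPM against 17.2, 7.05 and 10.04 CPM, and its call (log2 fold change -1.89, edgeR adjusted p = 0.00555) was lost without Ispir replicates 2 or 3 and without TR43477 replicates 1 or 3 (adjusted p 0.0117 to 0.0213).

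Of 14 pectinesterases and their inhibitors, which set the charge and stiffness of pectin, 3 were higher and 3 lower in Ispir (21.4% each way, against 11.4% and 11.5% of all genes), with a median log2 fold change of -0.02. The lower count was 1 without Ispir replicate 2, without TR43477 replicates 1 or 2 and under glmTreat, and the joint fit called none in either direction. Phvul.001G209400 had 22.2, 3.47 and 14.3 CPM in Ispir, while TR43477 held 1 read in all, a ratio of 627 (95% exact Poisson interval 113 to 24782). The methylesterase gene Phvul.002G048500 had 5.53, 5.54 and 13.7 CPM in Ispir and no read in TR43477, at least 42.8-fold higher against the floor. Phvul.002G318500 had 9.09, 3.81 and 4.13 CPM against 108, 70.2 and 63.5 CPM (log2 fold change -3.84 ± 0.37, SE, edgeR adjusted p = 0.000161), whereas in salt-treated roots the same gene was called higher in Ispir (log2 fold change 5.09, edgeR adjusted p = 0.000283).

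Of 12 genes for wall polymers and expansins 2 were higher and 2 lower in Ispir (16.7% each way, near the 11.4% and 11.5% of all genes), with a median log2 fold change of 0.14. Only 1 lower gene was called without Ispir replicate 2, without TR43477 replicates 1 or 3 and under glmTreat, the joint fit called 1 in each direction, and DESeq2 called 4 higher. A polygalacturonase gene (Phvul.008G109200, chromosome 8, 12298571 to 12300950), which cuts pectin, had 29.6, 25.3 and 21.4 CPM in Ispir and 0.147, 0.231 and 0.308 CPM in TR43477 (log2 fold change 6.72 ± 0.27, SE, edgeR adjusted p = 8.96e-06). It was also called higher in control leaves and salt roots, although no control leaf call held in every fit without 1 control library. The control leaves held 231, 121 and 106 CPM in Ispir and 0, 0.169 and 0 CPM in TR43477. A beta-D-glucan exohydrolase-like gene (Phvul.008G210100) had 11.2, 62.0 and 40.0 CPM against 1.92, 1.39 and 2.59 CPM (log2 fold change 4.27 ± 0.62, SE, edgeR adjusted p = 0.000963). The glucuronosyltransferase gene F8H (Phvul.011G085300), which acts on xylan, had 10.6, 6.77 and 2.78 CPM against 84.0, 73.5 and 85.8 CPM (log2 fold change -3.59 ± 0.38, SE, edgeR adjusted p = 0.000248). The lowest member, a laccase-7-related gene (Phvul.010G005900), was seen in 1 library only (TR43477 replicate 1, 3.24 CPM) and did not pass (edgeR adjusted p = 0.131).

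In the list of wax, cutin and flavonoid genes, 4 of 11 (36.4%, against 11.4% of all genes) were higher in Ispir and 1 (9.09%, near the 11.5% of all genes) was lower, with a median log2 fold change of -0.27. The joint fit called none in either direction, and glmTreat and the replicate block called none lower. An alkane hydroxylase gene (Phvul.004G005400), of the cytochrome P450 group that oxidises wax alkanes, had 22.6, 24.3 and 31.9 CPM in Ispir and 0.663, 2.25 and 1.05 CPM in TR43477 (log2 fold change 4.27 ± 0.37, SE, edgeR adjusted p = 0.000106). The lower gene, an isoflavone 2'-hydroxylase (Phvul.009G244200), held 1 read in all Ispir libraries and 0.516, 0.867 and 0.554 CPM in TR43477, 26.6 times as much (95% exact Poisson interval 4.77 to 1049). Its call (edgeR adjusted p = 0.00631) was lost without Ispir replicates 2 or 3 and without any 1 of the TR43477 replicates (adjusted p 0.0152 to 0.0275), and the lower count of the list was 2 without Ispir replicate 1.

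Among 63 further annotated genes, 14 were higher and 14 lower in Ispir (22.2% each way, against 11.4% and 11.5% of all genes), with a median log2 fold change of -0.39. Without Ispir replicate 2, 9 were lower, and the joint fit called 6 higher and 7 lower. A thioredoxin gene (Phvul.008G011500, chromosome 8, 975498 to 976627), of the family of small disulphide reductases, held 1 read in each Ispir library and 7.59, 7.75 and 7.20 CPM in TR43477, 103 times as much (95% exact Poisson interval 35.2 to 499, edgeR adjusted p = 1.55e-05). Without salt the order was the other way round, with 23.3, 19.1 and 7.69 CPM in Ispir and 4.12, 2.53 and 0.564 CPM in TR43477 (log2 fold change 2.80, edgeR adjusted p = 0.0822). Cathepsin B (Phvul.001G220100), a papain-like protease, had 23.9, 21.2 and 18.9 CPM against 62.9, 61.2 and 67.5 CPM in salt leaves (log2 fold change -1.58 ± 0.13, SE, edgeR adjusted p = 7.24e-05) and 157, 377 and 213 CPM against 101, 105 and 42.6 CPM in control leaves. In neither gene did the salt leaf groups overlap.

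Alcohol dehydrogenase 1 (Phvul.001G067300), the enzyme of ethanol fermentation, had 9.25, 9.68 and 6.73 CPM in Ispir and 0.221, 0.116 and 0.0616 CPM in TR43477 (log2 fold change 5.97 ± 0.39, SE, edgeR adjusted p = 3.62e-05). A gene annotated as a proprotein convertase (Phvul.008G229500), a subtilisin-type protease, had 60.2, 33.6 and 64.2 CPM in Ispir and no read in TR43477, at least 272.8-fold higher against the floor (edgeR adjusted p = 6.38e-05). On the lower side, a cytochrome P450 gene (Phvul.004G021200) had 0.991, 0.168 and 0.269 CPM in Ispir and 23.7, 13.2 and 13.7 CPM in TR43477 (log2 fold change -5.20 ± 0.53, SE, edgeR adjusted p = 0.000198). An aldo/keto reductase gene (Phvul.009G207800) had 1.73, 0.560 and 0.538 CPM against 20.7, 29.1 and 14.7 CPM (log2 fold change -4.54 ± 0.45, SE, edgeR adjusted p = 0.000191). An ACR7-related gene (Phvul.002G151300), of the ACT domain family, had 14.8, 13.7 and 11.9 CPM against 56.8, 49.0 and 62.2 CPM (log2 fold change -2.05 ± 0.14, SE, edgeR adjusted p = 4.53e-05). None of these 5 genes overlapped between the genotypes.

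Some genes had few or no reads in 1 of the genotypes. In salt leaves 385 genes had more than 3 reads in every Ispir library and at most 3 in every TR43477 library, and 695 genes showed the reverse. Of these, 152 of the 385 and 304 of the 695 had no read at all in the other genotype, and the rest had a few. Only 107 of the 385 and 139 of the 695 reached a mean of 50 reads in the genotype that carried them, so most were weak transcripts. The same pattern held in control leaves for 110 of the 385 and 127 of the 695, and 40 and 53 kept it in control leaves and salt roots together. Of the 385 genes 10 were annotated, and of the 695 genes 6 were, against 365 annotated among all 27213 genes. Reads of both genotypes were aligned to the same reference. Where a gene had no read in any library of a genotype, its absence cannot be told apart from a lack of transcription.

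Some of the largest fitted differences lay at genes without an annotation, and since the files do not pair identifiers with names, these are given by identifier. Phvul.009G195000 (chromosome 9, 29662170 to 29670920) had no read in any Ispir salt leaf library and 121, 119 and 123 CPM in TR43477, at least 530.4-fold lower in Ispir against the floor. It also had no read in the Ispir control leaves, where TR43477 held 132, 129 and 129 CPM, and 0.426 CPM in a single Ispir salt root library. Phvul.005G063900 (chromosome 5, 9738627 to 9748559) behaved likewise, with no read in Ispir and 61.8, 75.2 and 71.5 CPM in TR43477 salt leaves, at least 304-fold lower in Ispir. The 2 genes with the largest fitted difference in the other direction had reads in TR43477 control leaf replicate 3. That library also stood apart from the other TR43477 control leaf libraries at the beta-amylase 5-related gene. Phvul.006G202700 (chromosome 6, 29893905 to 29894651) had 205, 1041 and 836 CPM in Ispir and no read in TR43477 salt leaves, at least 3593-fold higher, yet it stood at 684 CPM in TR43477 control replicate 3. Phvul.010G135000 (chromosome 10, 41734197 to 41741375) had 1312, 2914 and 3679.8 CPM in Ispir against 3 reads in all TR43477 salt leaf libraries together, a ratio of 41374 (95% exact Poisson interval 14157 to 200625), with 44.8 CPM in TR43477 control replicate 3.

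The same contrast of genotypes was fitted in control leaves and in salt-treated roots, which share no library with the salt leaves. In control leaves 122 of 22793 genes (0.535%) were called and in salt roots 1431 of 23898 (5.99%). These counts depended on single libraries: 0 genes were called in control leaves without Ispir replicates 1, 2 or 3 or TR43477 replicate 1, and 1 without TR43477 replicate 2, while in roots 743 were called without Ispir replicate 3 and 757, 937 and 632 without TR43477 replicates 1, 2 and 3. The biological coefficient of variation was 0.515 in control leaves, 0.221 in salt roots and 0.215 in salt leaves, so the spread between control leaf libraries was wider. Of 5142 genes called in salt leaves and tested in control leaves, 3096 (60.2%) had the same sign there, against 54.5% of all 22000 genes tested in both. Of the 122 genes called in control leaves, 92 (75.4%) were called in the same direction in salt leaves, which is 1.79% of the salt leaf calls. Of the 1296 root calls tested in leaves, 541 (41.7%) were called in the same direction in salt leaves and 100 (7.72%) in the opposite one. Of all genes tested in salt leaves, 11.4% were called higher and 11.5% lower, so the opposite share was below that of all genes. The shared counts moved with the same libraries, from 92 to 0 in control leaves and from 541 to 283 to 377 in roots without Ispir root replicate 3 or TR43477 root replicates 1, 2 or 3.

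Whether the genotype difference itself depended on salt was tested with a genotype by treatment interaction fitted to the 12 leaf libraries. It was called for 1199 of 23306 genes (5.14%), 723 (3.1%) with a more positive and 476 (2.04%) with a more negative difference in salt leaves. Among the 60 photosynthesis genes 32 were called, all positive, and the median interaction was 3.47 on the log2 scale. The library left out mattered here: 402 genes were called without Ispir control replicate 2, 396 and 406 without Ispir salt replicates 2 and 3, and 311, 291 and 303 without TR43477 salt replicates 1, 2 and 3. In the same order of libraries, 7, 13, 14, 10, 6 and 6 of the photosynthesis genes were called, and 51 photosynthesis genes were called without Ispir control replicate 3. Of the calcium signalling genes 5 of 7 were called, all negative. Lhcb2 had an interaction of 5.96 (edgeR adjusted p = 0.0032), calmodulin one of -5.57 (edgeR adjusted p = 0.0054) and thioredoxin one of -9.30 (edgeR adjusted p = 0.000849). These 3 genes were named for their difference in salt leaves, whose libraries also enter this fit. Most genes of the photosynthesis and calcium lists were picked by the study for their salt response in these same libraries. The list counts and their direction are therefore no independent evidence of an interaction.

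**Figure D5:**
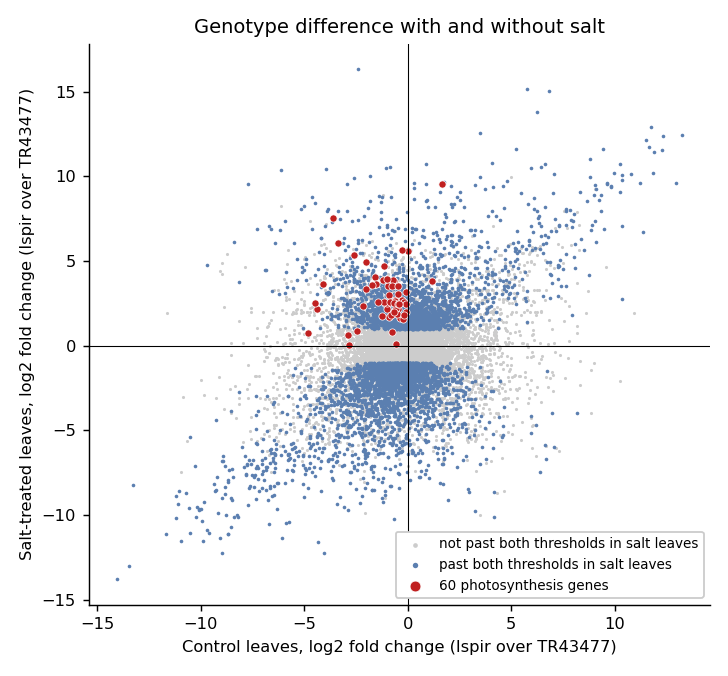
Log2 fold change of Ispir over TR43477 in control leaves (x axis) and in salt-treated leaves (y axis) for the 22000 genes tested in both; blue marks genes past both thresholds in salt leaves and red the 60 photosynthesis genes. All 60 photosynthesis genes have a positive value in salt leaves, and 57 of them a negative one in control leaves. Most of them were picked by the study for their salt response in these same libraries.

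Called genes lay on all 11 chromosomes. The share of tested genes called in salt leaves ran from 18.2% on chromosome 7 to 28.4% on chromosome 4, around the 22.9% of all genes. Chromosome 4 held 197 genes higher and 218 lower in Ispir. Next to a gene called higher in Ispir, the following tested gene was called higher in 18.3% of cases (463 of 2531), against 11.4% over all genes, and next to a gene called lower it was called lower in 19.3% of cases (497 of 2577), against 11.6%. Neighbouring copies of 1 family, such as the Lhcb1 and Bet v I genes, count among these pairs.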

How the data were processed

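Total RNA of leaves and roots (3 biological replicates per group) was made into stranded poly(A) libraries and sequenced. Per the labels, the authors used FastQC, Trimmomatic and HISAT2, and aligned both genotypes to 1 Phaseolus vulgaris reference. The deposited values are raw read counts per gene for each library. The rules for strand and for reads with several matches are not given in the sources used here. The tables also hold the authors' own p-values and log2 fold changes of salt against control, which were not used.

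Tables were joined by gene identifier. Genes with at least 1 count over the fitted libraries were tested with edgeR 4.0.16 (R 4.3.3, limma 3.58.1): TMM scaling, glmQLFit and a two-sided glmQLFTest, with p-values adjusted by Benjamini and Hochberg's method across the genes of that fit. A gene was called where the adjusted p was under 0.01 and the log2 fold change beyond 1 in either direction, as in the study. Fold changes are Ispir over TR43477, and the SE is the absolute log2 fold change divided by the square root of F. CPM are TMM-scaled within each fit. Where a genotype had no read, the fold is a bound against 3 reads per library. Where it had 1 to 3 reads in all, a ratio with its exact Poisson interval is given, which covers counting error only.

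The 80 named genes are the 2 highest and 2 lowest unannotated genes by log2 fold change (called, mean of at least 50 counts, no overlap), up to 15 annotated genes per direction by smallest adjusted p, the highest and lowest member of each list, and leaf genes the study names by identifier. Members and lists were chosen with earlier results of these data known. No identifier matched the RefSeq gene table (0 matches), so annotations are the study's. DESeq2 1.42.0 and further edgeR settings were run as alternatives. The labels do not say whether leaf and root libraries came from the same plants.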

Additional observations from a re-analysis of the deposited data

Results flagged for a closer look

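Of the 80 named genes, 24 had a genotype difference that was not the same in salt-treated as in control leaves. This was tested with a genotype by treatment interaction fitted to the 12 leaf libraries (edgeR quasi-likelihood test, adjusted p under 0.01). Over all genes, 5.14% of 23306 passed both thresholds for it. Most named genes were picked for their salt leaf values, and those libraries enter this fit. The 24 are therefore no independent evidence of an interaction. The values below are the genotype difference in salt leaves minus that in control leaves, on the log2 scale. These calls depended on single libraries, as the counts given with the interaction show.

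Among the antenna genes, the interaction was 5.96 for Lhcb2 (Phvul.008G285100), 5.66 and 5.12 for the Lhcb6 genes Phvul.002G207500 and Phvul.006G207300, 5.33 for Lhca5 (Phvul.009G064900), 4.98 for Lhca2 (Phvul.009G260200) and 2.73 for Lhca3 (Phvul.008G289700). Among photosystem subunits it was 5.91 for PsaK (Phvul.002G140800), 2.68 for PsaE (Phvul.007G155500), 4.07 and 2.65 for the PsbQ genes Phvul.010G052300 and Phvul.003G045300, and 2.94 for PsbP (Phvul.008G015100). For PetF (Phvul.006G216800) it was 5.61, and for the ATP synthase delta (Phvul.003G211100) and gamma (Phvul.006G149700) subunits it was 3.17 and 2.64. PsbP and this PetF gene did not pass in salt leaves alone.

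Positive interactions outside photosynthesis were 6.55 for the isoleucine gene Phvul.009G166100, 6.11 for Phvul.008G282000 (fructose 6-phosphate to PEP), 4.61 for the EamA-like transporter Phvul.003G151700, 2.67 for the DASS family symporter Phvul.006G204300 and 2.36 for the K+ transporter Phvul.008G152200. Negative ones were -9.30 for thioredoxin (Phvul.008G011500), -5.57 for calmodulin (Phvul.008G037300), -3.14 for cathepsin B (Phvul.001G220100), -2.50 for ACR7-related (Phvul.002G151300) and -2.14 for the urea-annotated symporter Phvul.002G127200.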

How the results depend on the processing

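In salt leaves the count of 5159 stayed within 1.5 times under DESeq2, another scaling (RLE), edgeR's filterByExpr, its likelihood ratio test, an adjusted p threshold of 0.05 and a replicate block (4192 with the replicate block). It was 2393 (1162 higher, 1231 lower) when tested against the fold threshold (glmTreat) and 2764 (1415 higher, 1349 lower) with all 12 leaf libraries in 1 fit. Without 1 library it ran from 3927 to 5462 (1957 to 2727 higher, 1871 to 2735 lower). The photosynthesis count of 53 became 43 with all 12 leaf libraries and 45 under glmTreat, and ran from 47 to 57 without 1 library. The log2 difference of the antenna and Rubisco sum ran from 2.65 to 3.14 without 1 library (2.71 on total counts). Of the 80 named genes, 21 lost their call with all 12 leaf libraries, 11 under glmTreat and 4 with the block. Without Ispir replicate 3 the sign turned at 3 genes that were not called: the range over the 6 fits without 1 library was -0.041 to 0.318 for Phvul.001G252200, -0.168 to 0.328 for PsbP (Phvul.008G015100) and -0.037 to 0.872 for Lhcb3 (Phvul.011G155700).

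The control leaf count of 122 became 2191 with DESeq2, 1888 with the likelihood ratio test, 44 with glmTreat, 1150 at 0.05, 1754 with all 12 leaf libraries and 0 with the replicate block (edgeR, with 5475 genes at an unadjusted p under 0.05 in the fit without it), and 0 to 101 without 1 library. The salt root count of 1431 became 2343, 2795, 569 and 2550 under the first 4 of these, and 632 to 1637 without 1 library. The interaction count of 1199 became 3330, 3084, 273 and 3521, and 291 to 1546 without 1 library. The cause of these shifts was not tested. Replicate numbers did not pair the salt leaf samples (same-number correlations of -0.037, -0.136 and 0.011), and not every sample correlated best with its own number; the block gave 1179 genes in salt roots and 1172 for the interaction. With 3 libraries per group, single values cannot go below an exact p of 0.1.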
